A study of Mus musculus with 17 samples.

Results

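The genes of the interleukin-1 (IL-1) family and of its antagonists and receptors were followed in cultured mouse peritoneal macrophages given the HIV protein Tat. They were 8 genes listed by symbol, namely Il1a, Il1b, Il1rn, Il18, Il18bp, Il1rap, Il1r1 and Il1r2. All 8 were found among the 21683 rows of the expression table, and all 8 were among the 10451 genes that reached at least 1 TPM in at least 5 libraries and were tested. TPM is a measure of transcript level normalized for transcript length and for the library total, so it can be compared between genes within a library.

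RNA-Seq was performed on 17 libraries of peritoneal macrophages in 3 groups, and a figure legend of the study describes each column as a biological replicate from a mouse. All mice were C57BL/6, 8 weeks old and homozygous for a loxP-flanked Ikbkb allele (IKKβF/F), and had received 1 mL of 3% thioglycollate, an irritant that draws macrophages into the peritoneal cavity. The cells attached to plates for 4 h and were then treated for 12 h. IKKβF/F cells were given PBS (F/F PBS, n = 6) or 100 nM Tat (F/F Tat, n = 6), and IKKβΔMye cells were given 100 nM Tat (ΔMye Tat, n = 5). The ΔMye mice also carried a heterozygous LysM-Cre knock-in, which sits at the Lyz2 gene and drives recombination in macrophages and neutrophils, and IKKβ is the kinase that activates canonical NF-κB. The labels place the collection of cells 3 days after thioglycollate and the methods place it a day later. ΔMye cells given PBS were not analysed here, so what set the Tat groups of both genotypes apart may have been there before Tat was added.

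IL-1α and IL-1β, encoded by Il1a and Il1b, both signal through the receptor IL-1R1 and its coreceptor IL-1RAP, which recruit MyD88 and IRAK kinases and activate NF-κB and MAP kinases. The receptor antagonist encoded by Il1rn binds IL-1R1 without recruiting the coreceptor, and the decoy receptor encoded by Il1r2 binds IL-1 without signalling. IL-1β and IL-18 are made as inactive precursors that caspase-1 cleaves, and IL-18 is neutralised by the secreted IL-18 binding protein encoded by Il18bp. Macrophages are a main source of IL-1β, and IL-1β made in the vessel wall is known to promote atherosclerosis.

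Ikbkb (chromosome 8, 22659212 to 22706589, minus strand, GRCm38) checks the genotype labels. It was listed at 24.5 to 30.1 TPM in F/F PBS, 21.6 to 25.4 TPM in F/F Tat and 12.8 to 19.9 TPM in ΔMye Tat. In TPM as listed the ΔMye libraries thus lay below both other groups, with a mean at 70.7% of the F/F Tat mean. The listed TPM summed to 889318 to 903576 per library, the number of reads behind them is unknown, and no 2 libraries of a group were identical. All 8 macrophage markers examined (Adgre1, Cd68, Csf1r, Itgam, Mertk, Cd14, Lyz2 and Fcgr1) had a mean of at least 1 TPM in every group. Their summed TPM were 25796 to 26807 in F/F PBS and 10310 to 10890 in F/F Tat, and single markers moved both ways with Tat, such as Csf1r from a mean of 381 to 64.0 TPM, Lyz2 from 22382 to 6993 TPM and Cd14 from 203 to 842 TPM. Their part in the Tat differences was not tested. With Tat the median tested gene fell by 0.65 on the log2 scale of TPM, and it was 0.22 higher in ΔMye Tat than in F/F Tat. Levels between libraries thus depend on the scaling, and differences are also given after median-ratio scaling, which brought these medians to -0.03 and 0.01. On that scale Ikbkb was at 19.8 in ΔMye Tat library 19 and at 19.5 in F/F PBS library 1, so these groups overlapped. Every ΔMye Tat library stayed below every F/F Tat library. Bulk RNA cannot tell fewer cells of a type from less RNA per cell.

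The promoters shown are those of the 4 genes that rose more than 3-fold with Tat (Il1a, Il1b, Il1rn and Il18), by amounts that differed. Each sequence holds the 250 bases before the transcription start in RefSeq (GRCm38.p6), 5′ to 3′ along the gene, and capitals mark matches to the searched motifs.
Il1a, chr2:129309973-129310222, minus strand: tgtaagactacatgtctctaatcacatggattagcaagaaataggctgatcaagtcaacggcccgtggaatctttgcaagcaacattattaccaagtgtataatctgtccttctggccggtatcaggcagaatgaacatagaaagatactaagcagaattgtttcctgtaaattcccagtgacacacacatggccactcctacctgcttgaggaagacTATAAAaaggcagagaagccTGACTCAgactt
Il1b, chr2:129371140-129371389, minus strand: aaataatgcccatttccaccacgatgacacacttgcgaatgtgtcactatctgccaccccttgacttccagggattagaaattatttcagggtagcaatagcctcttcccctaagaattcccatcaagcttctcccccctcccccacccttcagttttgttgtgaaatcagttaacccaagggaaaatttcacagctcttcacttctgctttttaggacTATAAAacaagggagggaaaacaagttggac
Il1rn, first of 3 listed starts, chr2:24336610-24336859, plus strand: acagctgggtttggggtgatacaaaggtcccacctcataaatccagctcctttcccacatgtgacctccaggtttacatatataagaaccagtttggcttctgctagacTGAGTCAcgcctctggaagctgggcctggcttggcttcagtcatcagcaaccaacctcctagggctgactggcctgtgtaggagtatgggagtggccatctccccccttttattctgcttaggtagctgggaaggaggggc
Il18, chr9:50554450-50554699, plus strand: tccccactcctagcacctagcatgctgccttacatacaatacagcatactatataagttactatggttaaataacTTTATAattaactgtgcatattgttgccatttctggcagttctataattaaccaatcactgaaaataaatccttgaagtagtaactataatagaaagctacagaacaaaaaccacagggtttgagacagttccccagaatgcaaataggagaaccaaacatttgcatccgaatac

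The motifs, searched on both strands of the 300 bases from 250 before to 50 after each start, were AP-1 (TGANTCA), C/EBP (TTGCNNAA), the TATA box (TATAAA) and the NF-κB κB site in its usual consensus. Il1a held a TATA box whose first base was at -32 and an AP-1 match at -12, counted with -1 as the base before the start. Il1b held a TATA box at -31. The Il1rn start shown held an AP-1 match at -141, and Il18 held TATAAA on the opposite strand at -175. The AP-1 motif reads the same on both strands, so each AP-1 match was counted on both. No match to the κB consensus lay in these 4 windows, which says only that those letters are not there. Of 32851 mouse promoters of the same length, 7.81% held the AP-1 motif, 10.8% the C/EBP motif, 13.6% the TATA box and 8.46% the κB consensus. Of the Il1rn starts not shown, start 2 held no match and start 3 held TATAAA on the opposite strand at 15, past the start. Which start the Il1rn RNA came from was not tested. Among the other members, Il18bp held a C/EBP match at -49, 1 of 2 Il1r1 starts held a C/EBP match at -133 and the other a κB match at -232, and Il1r2 and Il1rap held none.

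The first comparison asked how Tat changed these genes in F/F macrophages. The agonists and antagonists rose: Il1b 164-fold, Il1a 79.1-fold, Il1rn 32.9-fold, Il18 16.4-fold and Il18bp 2.73-fold as ratios of mean TPM. Of the 8 members, 6 were higher, 1 was lower and 1 was neither at an adjusted p under 0.01 (limma on log2(TPM + 0.1), Benjamini-Hochberg over all 10451 genes). Of all tested genes 17% were higher and 67.6% lower by the same rule. Il1a, Il1b, Il1rn and Il18 also passed a fold change over 3, which 5.21% of all genes did upward. After median-ratio scaling the same 6 were higher, Il18bp also passed the fold change and Il1r1 was no longer called, where 37.3% of all genes were higher, 38.0% lower and 8.51% higher past the fold change. In 6 members every F/F Tat library lay above every PBS library, and in Il1r1 every one lay below, as in 15.3% and 62.4% of all genes. The median of the 8 log2 differences was 2.74, against -0.65 over all tested genes. The p-values measure only the spread between these libraries.

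Il1b encodes IL-1β, the secreted agonist, and lies on chromosome 2 (129364570 to 129371139, minus strand, GRCm38). Its lowest, median and highest levels were 45.5, 50.4 and 53.9 TPM in F/F PBS and 7755, 8283 and 8391 TPM in F/F Tat. Its ΔMye Tat levels were 7084, 7392, 7321, 6970 and 7625 TPM. Every Tat library of either genotype lay above every PBS library, and every ΔMye Tat library lay below every F/F Tat library, by a narrow margin. With Tat the log2 difference was 7.36 (SE 0.04, adjusted p = 1.73e-28, limma), the rank 11 from the top among 10451 genes. In F/F PBS libraries its median rank by level was 2225.5, and in F/F Tat libraries it ranked 9 in every library.

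Il1a encodes IL-1α, an agonist that is active as a precursor and acts in the nucleus, at the cell surface and after release from damaged cells. It lies near Il1b on chromosome 2 (129299610 to 129309972, minus strand, GRCm38). Its lowest, median and highest levels were 71.0, 81.4 and 86.2 TPM in F/F PBS and 5888, 6394 and 6665 TPM in F/F Tat. The ΔMye Tat libraries held 4190, 4398, 4253, 4235 and 4457 TPM. The 3 groups did not overlap, with ΔMye Tat between F/F PBS and F/F Tat and far nearer to F/F Tat. The log2 difference with Tat was 6.30 (SE 0.04, adjusted p = 5.06e-27, limma), the rank 21 from the top. Of the 1944 different 31-base sequences of its transcript, 195 also occur in the transcript Gm14023 on the opposite strand, and without strand information reads from these could not be assigned.

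Il1rn encodes the IL-1 receptor antagonist and lies on the same chromosome (24336853 to 24351494, plus strand, GRCm38). It was at 109, 122 and 132 TPM (lowest, median and highest) in F/F PBS and at 3893, 3991 and 4085 TPM in F/F Tat. In ΔMye Tat it was at 1830, 1850, 1876, 1882 and 1956 TPM. The 3 groups were again apart, and the spread within each was small, with a coefficient of variation of 6.37%, 1.94% and 2.56%. The log2 difference with Tat was 5.04 (SE 0.03, adjusted p = 2.05e-26, limma), the rank 53 from the top. In all PBS libraries the order of levels was Il1rn over Il1a over Il1b, and in all Tat libraries of either genotype it was Il1b over Il1a over Il1rn. The ranges of the 3 genes did not overlap within any group.

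Il18 encodes a caspase-1-processed cytokine that induces interferon-γ in lymphocytes, and it lies on chromosome 9 (50554827 to 50581840, plus strand, GRCm38). Its levels were 11.1, 13.1 and 15.3 TPM (lowest, median and highest) in F/F PBS and 199.6, 217 and 229 TPM in F/F Tat. The ΔMye Tat libraries held 152, 160, 171, 144 and 143 TPM, between the other groups and apart from both. With Tat it was 4.04 higher on the log2 scale (SE 0.07, adjusted p = 7.25e-21, limma), the rank 98 from the top. Il18bp, on chromosome 7 (102014885 to 102018690, minus strand, GRCm38), was at 19.02, 21.4 and 23.2 TPM in F/F PBS and 51.9, 57.0 and 65.8 TPM in F/F Tat. In ΔMye Tat it was at 55.3, 58.0, 56.8, 58.0 and 51.5 TPM, within the range of F/F Tat apart from the lowest library. Its log2 difference with Tat was 1.44 (SE 0.05, adjusted p = 3.54e-15, limma), and 2.07 after scaling. Il18bp overlaps Numa1 on the opposite strand and shares 50 of its 3126 sequences of 31 bases with it.

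**Figure D1:**
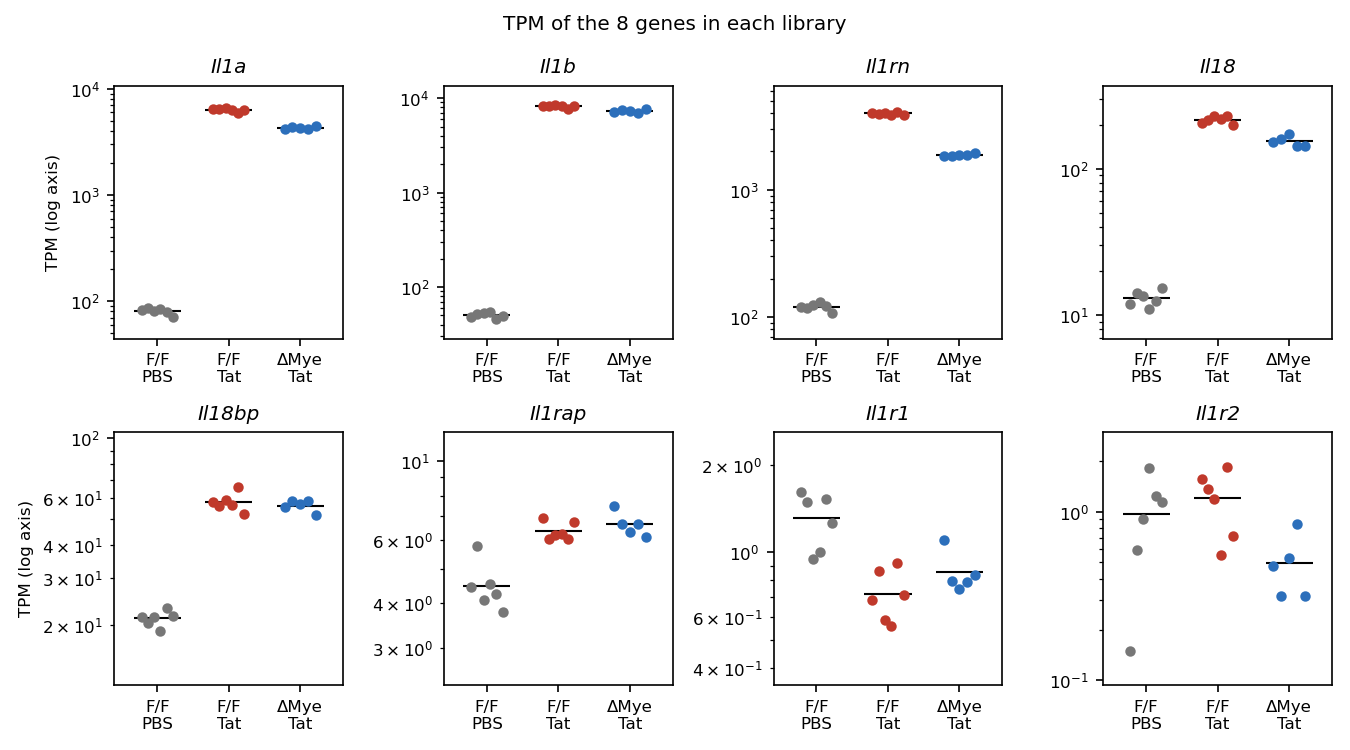
TPM of the 8 genes on log axes, one point per library, with F/F PBS (n = 6) in grey, F/F Tat (n = 6) in red, ΔMye Tat (n = 5) in blue and a line at each group mean. Il1a, Il1b, Il1rn and Il18 rose from means of 80.4, 50.1, 121 and 13.1 TPM to 6356, 8208, 3981 and 216 TPM with Tat. Il1r1 and Il1r2 were low, with group means of 0.719 to 1.31 TPM and 0.497 to 1.20 TPM.

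The receptor genes were present at far lower levels than the ligands. Il1rap, the coreceptor shared by IL-1, IL-33 and IL-36 receptors (chromosome 16, 26581704 to 26730117, plus strand, GRCm38), was at 3.78, 4.34 and 5.78 TPM (lowest, median and highest) in F/F PBS and 6.03, 6.23 and 6.91 TPM in F/F Tat. It was at 7.50, 6.67, 6.31, 6.67 and 6.12 TPM in ΔMye Tat, so both Tat groups lay above the PBS group and overlapped each other. Its log2 difference with Tat was 0.51 (SE 0.09, adjusted p = 2.53e-05, limma) and 1.13 after scaling. Of its 31-base sequences 4.33% are shared with Gm20319 on the opposite strand.

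Il1r1, the signalling receptor (chromosome 1, 40225080 to 40317257, plus strand, GRCm38), was at 0.950, 1.38 and 1.62 TPM in F/F PBS and 0.557, 0.697 and 0.917 TPM in F/F Tat. In ΔMye Tat it was at 1.10, 0.794, 0.745, 0.789 and 0.834 TPM, overlapping both other groups. It reached 1 TPM in 5 libraries, 4 of F/F PBS and 1 of ΔMye Tat, so it passed the filter through the group where it was high. Its calls against F/F PBS are thus no independent support. Its log2 difference with Tat was -0.78 with no overlap, but it was -0.20 after median-ratio scaling (adjusted p = 0.255) and 0.51 after quantile normalization (adjusted p = 0.0124), so its direction depended on the scaling. At -0.78 it was also close to the median tested gene, at -0.65.

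Il1r2, the decoy receptor (chromosome 1, 40074079 to 40125231, plus strand, GRCm38), was at 0.150, 1.02 and 1.82 TPM in F/F PBS and 0.550, 1.27 and 1.84 TPM in F/F Tat. It was at 0.477, 0.317, 0.531, 0.845 and 0.318 TPM in ΔMye Tat, and all 3 groups overlapped. It reached 1 TPM in 3 libraries of F/F PBS, 4 of F/F Tat and 0 of ΔMye Tat, so it passed the filter through the F/F groups. Its log2 difference with Tat was 0.42 with an interval from -0.42 to 1.26 (95%, adjusted p = 0.322, limma), which holds 0. After quantile normalization the difference was 1.61 (adjusted p = 4.86e-04).

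Markers of other cells that can carry IL-1 receptors were present at low levels. The summed TPM of 6 mast cell markers were 32.9 to 45.6 in F/F PBS, 31.5 to 43.3 in F/F Tat and 24.2 to 30.9 in ΔMye Tat. Those of 7 mesothelial and fibroblast markers were 15.2 to 21.1, 12.3 to 15.8 and 7.21 to 11.6. Those of 9 neutrophil markers were 57.5 to 68.7, 66.9 to 77.9 and 87.8 to 106, nearly all from S100a8, with Elane and Ngp at 0 in every library and Mpo at most 0.0574 TPM. Their part in the levels of Il1r1 and Il1r2 was not tested.

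**Figure D2:**
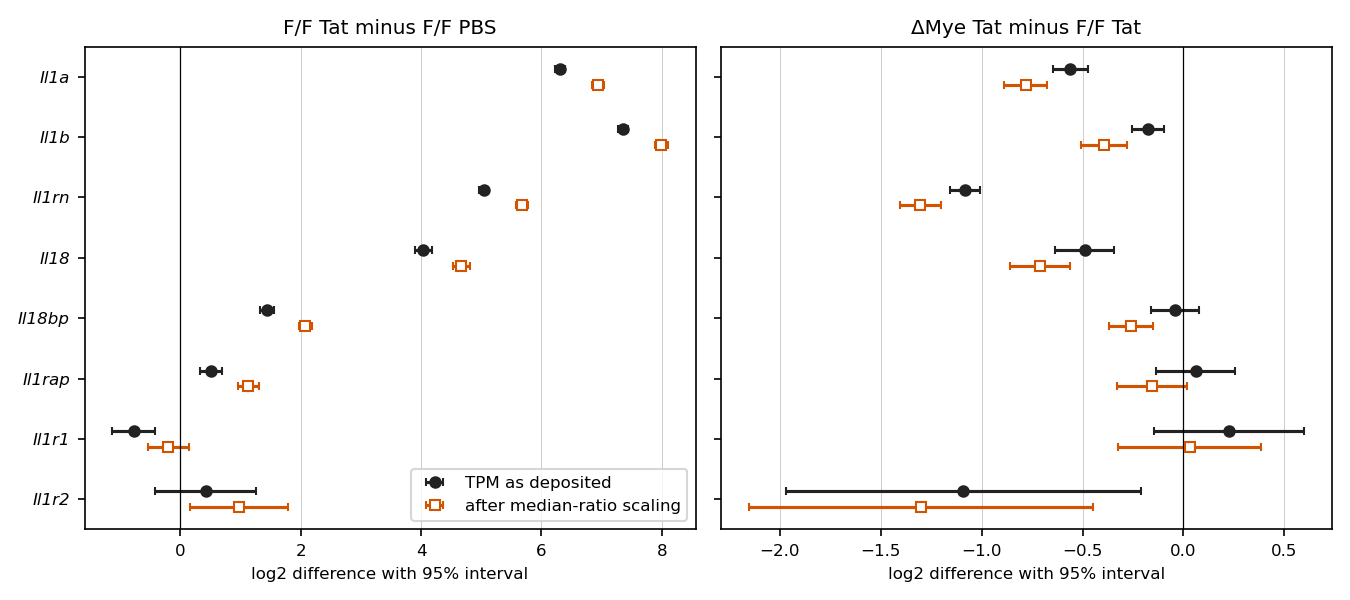
Log2 differences of the 8 genes for F/F Tat minus F/F PBS (left) and ΔMye Tat minus F/F Tat (right), as points with 95% intervals from limma, for TPM as deposited (filled) and after median-ratio scaling (open). Il1b rose by 7.36 with Tat and differed by -0.17 between the Tat groups, and Il1rn rose by 5.04 and differed by -1.08.

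The second comparison asked how the genes differed between ΔMye and F/F macrophages that had both received Tat. Il1rn was the most affected of the abundant members, at 47.2% of its F/F Tat mean, while Il1a was at 67.8%, Il18 at 71.3% and Il1b at 88.7%. These 4 of the 8 members were lower at an adjusted p under 0.01 and the other 4 passed in neither direction, where 8.87% of all tested genes were lower and 38.8% higher. No member passed a fold change over 3, which 0.756% of all genes did in either direction. After scaling, Il18bp was also lower, which made 5 lower members, and 19.4% of all genes were lower and 15.9% higher. The median of the 8 log2 differences was -0.33, against 0.22 over all tested genes.

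Il1rn differed by -1.08 on the log2 scale between ΔMye Tat and F/F Tat (SE 0.04, adjusted p = 1.70e-14, limma), and by -1.30 after median-ratio scaling. Its rank was 10333 of 10451 from the top. Il1a differed by -0.56 (SE 0.04, adjusted p = 1.41e-09, limma) and Il18 by -0.49 (SE 0.07, adjusted p = 9.02e-06, limma), and scaling moved these to -0.78 and -0.71. In all 4 genes the ΔMye libraries lay below the F/F libraries without overlap, as in 8.01% of all genes. For Il1b the log2 difference was -0.17 (SE 0.04, adjusted p = 6.71e-04, limma). It was -0.39 after median-ratio scaling and 0.028 after quantile normalization (adjusted p = 0.643), so the direction for Il1b did not hold under every scaling. Il1a, Il1rn and Il18 were lower under both scalings. Beside these differences, the summed TPM of the 8 macrophage markers, most of it from Lyz2, were 10310 to 10890 in F/F Tat and 8019 to 8344 in ΔMye Tat. Of these 8, Lyz2, which carries the Cre, and Fcgr1 had lower means in ΔMye Tat (6993 to 4333 and 300.1 to 164 TPM) and the other 6 had higher means, such as Csf1r (64.0 to 104 TPM) and Cd14 (842 to 1009 TPM). The summed TPM of the neutrophil markers were higher in ΔMye Tat as given above, mainly through S100a8 (mean 68.6 to 91.4 TPM). At low levels, S100a9 (0.842 to 0.716 TPM) and Retnlg (0.671 to 0.298 TPM) had lower means, and Camp, Ly6g, Cxcr2 and Mpo had higher ones. The part of these cells in the differences was not tested.

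Il18bp differed by -0.04 with an interval from -0.16 to 0.08 (adjusted p = 0.549, limma), and by -0.26 after median-ratio scaling (adjusted p = 4.41e-04). Il1rap differed by 0.06 with an interval from -0.13 to 0.26 (adjusted p = 0.584, limma), so a loss or gain on the scale of that of Il1rn lay outside its interval. Il1r1 differed by 0.22 with an interval from -0.15 to 0.60 (adjusted p = 0.282, limma). Il1r2 differed by -1.09 with an interval from -1.97 to -0.21, which did not pass the threshold (adjusted p = 0.0316, limma). It passed the filter through the F/F libraries alone, where it was higher, so the p-values for this difference are no independent support. Without F/F PBS library 1, the lowest Il1r2 value of all and a member of the shared fit, its adjusted p was 0.00615 at the same difference.

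Against the same F/F PBS libraries that served the first comparison, the ΔMye Tat cells still held 145-fold more Il1b, 53.6-fold more Il1a, 15.5-fold more Il1rn and 11.7-fold more Il18 as ratios of mean TPM. Their log2 differences were 7.18, 5.74, 3.96 and 3.55 in limma. Of the 8 members 6 were higher and 1 lower than in F/F PBS, where 17.5% of all genes were higher and 58.8% lower. The lower one was Il1r1, at -0.55 (adjusted p = 0.00818, limma), which was -0.17 after median-ratio scaling and 0.43 after quantile normalization. As it passed the filter mainly through F/F PBS, where it was high, this p-value is no independent support.

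The balance of antagonist to agonist transcripts was computed within each library, where the scaling between libraries cancels. These ratios are of RNA and do not give the balance of the proteins. The ratio of Il1rn to Il1b TPM was 2.42 ± 0.18 (SD, n = 6) in F/F PBS, 0.486 ± 0.021 (SD, n = 6) in F/F Tat and 0.258 ± 0.007 (SD, n = 5) in ΔMye Tat. It was thus above 1 in all PBS libraries, where the lowest was 2.20, and below it in all Tat libraries, where the highest was 0.527. The 5 ΔMye Tat values were 0.258, 0.250, 0.256, 0.270 and 0.257, all under the lowest F/F Tat value of 0.469. The ratio fell 4.97-fold with Tat and was a further 1.88-fold lower in ΔMye Tat than in F/F Tat. By exact two-sided permutation tests p was 0.00216 with Tat and 0.00433 between the Tat groups, the smallest these group sizes allow, and 0.00541 for both after adjustment over 10 ratio tests.

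With both agonists in the denominator the picture was alike. The ratio of Il1rn to the sum of Il1a and Il1b was 0.928 ± 0.049 (SD, n = 6) in F/F PBS, 0.274 ± 0.013 (SD, n = 6) in F/F Tat and 0.162 ± 0.004 (SD, n = 5) in ΔMye Tat, with no overlap (adjusted p = 0.00541 for both steps, exact permutation). Of the summed TPM of the 3 genes, Il1rn made up 48.1% with PBS, and with Tat 21.5% in F/F and 14.0% in ΔMye cells. Together they held 0.0282% of all listed TPM with PBS, and with Tat 2.06% in F/F and 1.5% in ΔMye cells.

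The agonists also shifted against each other. The ratio of Il1a to Il1b was 1.61 ± 0.11 (SD, n = 6) in F/F PBS, 0.774 ± 0.013 (SD, n = 6) in F/F Tat and 0.592 ± 0.010 (SD, n = 5) in ΔMye Tat. The groups were apart at both steps (adjusted p = 0.00541 for both, exact permutation). Il1b thus rose more than Il1a with Tat, and Il1a was lower relative to Il1b in ΔMye Tat than in F/F Tat.

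The IL-18 pair behaved differently. The ratio of Il18bp to Il18 was 1.62 ± 0.19 (SD, n = 6) in F/F PBS and 0.267 ± 0.013 (SD, n = 6) in F/F Tat, a 6.04-fold fall. It was 0.364 ± 0.025 (SD, n = 5) in ΔMye Tat, with values of 0.364, 0.364, 0.332, 0.403 and 0.360 that all lay above the highest F/F Tat value of 0.287. The transcript ratio of antagonist to agonist was thus 1.37-fold higher for Il18bp to Il18 and 1.88-fold lower for Il1rn to Il1b in ΔMye Tat than in F/F Tat (adjusted p = 0.00541 for both, exact permutation).

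The ratio of the decoy Il1r2 to the signalling Il1r1 was 0.830 ± 0.589 (SD, n = 6) in F/F PBS, 1.65 ± 0.56 (SD, n = 6) in F/F Tat and 0.600 ± 0.296 (SD, n = 5) in ΔMye Tat. All groups overlapped. The exact two-sided permutation p was 0.0260 with Tat (adjusted 0.0260) and 0.0130 between the Tat groups (adjusted 0.0144). The first rested on single libraries: without F/F PBS library 1 or 2, or F/F Tat library 7, 9 or 11, its adjusted p was 0.0519, and without F/F PBS library 1 the log2 difference was 0.76 in place of 1.20. With a pseudocount of 1 TPM the log2 difference was 0.60 with Tat and -0.64 between the Tat groups, in place of 1.20 and -1.32.

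**Figure D3:**
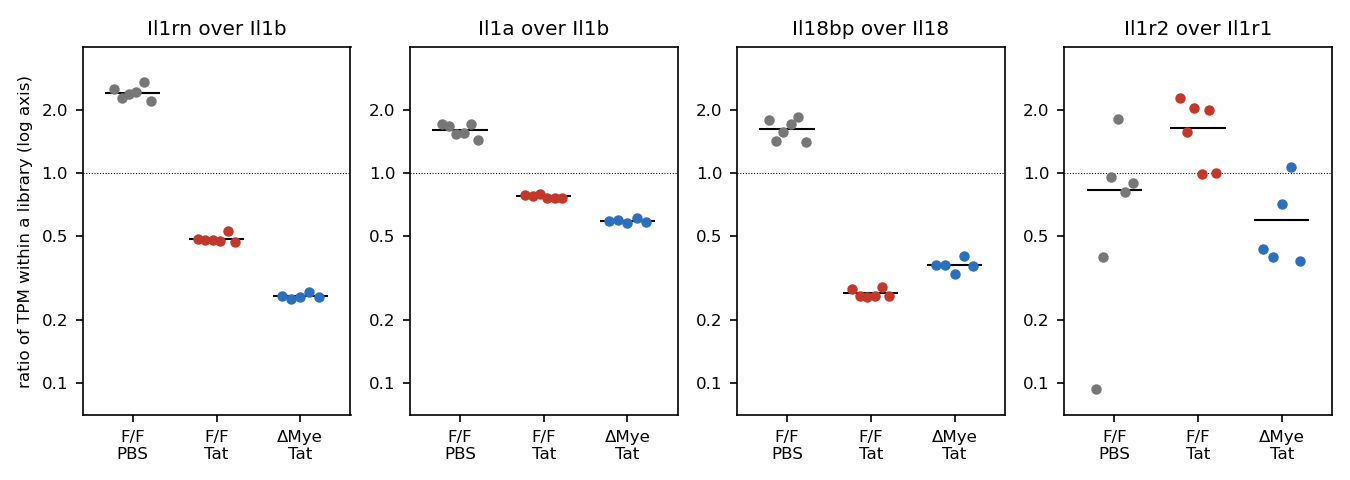
Ratios of TPM within a library on a log axis, one point per library with a line at each group mean, for Il1rn over Il1b, Il1a over Il1b, Il18bp over Il18 and Il1r2 over Il1r1 in F/F PBS (n = 6), F/F Tat (n = 6) and ΔMye Tat (n = 5); the dotted line marks equal TPM. The mean of Il1rn over Il1b was 2.42, 0.486 and 0.258, and that of Il18bp over Il18 was 1.62, 0.267 and 0.364.

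For each member the 3 genes with the most similar pattern were found as those with the smallest root-mean-square distance over the 17 libraries, after each gene was centred on the mean of its 3 group means. Il1rn was followed most closely by Ccl2, the monocyte chemoattractant, at a distance of 0.104 log2 units, then by Isg20 and Pla1a. Ccl2 was 5.17 higher with Tat and -1.03 in ΔMye Tat against F/F Tat on the log2 scale. Il1a was nearest to Upp1, a uridine phosphorylase, at 0.203, and then to Ccl5 and Slco3a1. Il1b was nearest to Il12a, the IL-12 subunit p35, at 0.330, and then to Ptgs2, the inducible cyclooxygenase, and Ptx3. Il1b thus had no gene as near to it as Ccl2 was to Il1rn. In ΔMye Tat against F/F Tat, Il12a and Ptgs2 were both further down than Il1b, at -0.68 and -0.70, and Ptx3 was 0.19 higher. Il18 was nearest to Ms4a4c at 0.174, and then to the interferon-induced GTPases Gbp2 and Tgtp2. Il18bp was nearest to Parp8 at 0.0922, then to Cd47 and Tnfrsf1b, and Il1rap to Zdhhc5 at 0.10. The nearest gene to Il1r2 was at 0.653, and the third of its list was the mast cell tryptase Tpsb2, with means of 22.2, 19.9 and 13.6 TPM. All genes of one library share its RNA and its scaling, so these distances describe and do not test.

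The rest of the family was sparse in these cells. Of 13 other ligands and receptors listed, 9 were found in the table and 5 were tested, and Il1f10 and Il1rapl2 were listed at 0 in every library. In F/F Tat against F/F PBS 2 of the 5 were higher and 1 was lower, and in ΔMye Tat against F/F Tat 3 were higher and 1 was lower. The shares of all tested genes were 17% higher and 67.6% lower, and 38.8% higher and 8.87% lower. The 2 higher with Tat were Il33 and Il18rap, which passed the filter only through groups where they were high. Il18rap was also among the 3 higher in ΔMye Tat and Il33 was the 1 lower, so these counts depend on the filter and are no result about the family. Il33, a nuclear alarmin, went from 0.126 to 0.291 TPM in F/F PBS to 1.25 to 2.16 TPM in F/F Tat, a log2 difference of 2.57. It reached 1 TPM in 0 F/F PBS, 6 F/F Tat and 2 ΔMye Tat libraries, so it passed the filter through F/F Tat, where it was high. The difference was 1.16 with a pseudocount of 1 TPM and 3.50 after quantile normalization. Il33 was at 0.648 to 1.20 TPM in ΔMye Tat, which differed from F/F Tat by -0.85 on the log2 scale. Because of the filter, the calls of both Il33 differences are no independent support. Il1rl2, the IL-36 receptor, had a log2 difference of -1.20 with Tat and was 0.67 higher in ΔMye Tat than in F/F Tat. Its ranges were 9.26 to 12.9, 4.28 to 4.98 and 6.86 to 8.41 TPM in F/F PBS, F/F Tat and ΔMye Tat, without overlap. With Tat 62.4% of all genes were lower without overlap. After median-ratio scaling the 2 differences of Il1rl2 were -0.57 and 0.45, and after quantile normalization -0.41 and 0.39. In ΔMye Tat against F/F PBS it was -0.53 and, after median-ratio scaling, -0.12 (adjusted p = 0.149, limma).

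The IL-18 receptor has 2 chains. Il18r1, the ligand-binding chain, was at 0.886 to 1.39 TPM in F/F PBS, 0.672 to 1.35 TPM in F/F Tat and 1.99 to 2.86 TPM in ΔMye Tat, a log2 difference of 1.20 between the Tat groups (adjusted p = 1.80e-05, limma). Il18rap, the signalling chain, was at 0.179 to 0.582, 0.652 to 0.913 and 1.28 to 1.82 TPM, and differed by 0.85 between the Tat groups. It passed the filter through the 5 ΔMye Tat libraries alone, where it was high, and after quantile normalization the difference was 0.54 and not past the threshold (adjusted p = 0.0127, limma). T cells carry this receptor, and the summed TPM of 5 T cell markers (Cd3d, Cd3e, Cd3g, Cd2 and Lck, none at 0) were 6.02 to 12.2 in F/F PBS, 5.50 to 7.21 in F/F Tat and 10.4 to 11.8 in ΔMye Tat. Those of 5 NK cell markers were 4.53 to 9.53, 4.27 to 6.69 and 5.67 to 8.06. Their part in the receptor levels was not tested.

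Of 15 genes of IL-1 receptor signalling, all tested, 6 rose and 7 fell with Tat, with a median log2 difference of -0.13, where 17% of all tested genes rose, 67.6% fell and the median was -0.65. After median-ratio scaling 8 rose and 6 fell, against 37.3% and 38.0% of all genes. Peli1, a ubiquitin ligase that acts on IRAK1, rose by 2.02 on the log2 scale, Myd88 by 0.99, Irak2 by 0.81, Irak3, the inhibitory IRAK-M, by 0.79 and Traf6 by 0.72. Ecsit fell by 1.90, the kinase genes Irak1 by 1.53 and Irak4 by 1.27, and Tab1 by 1.34. Map3k7, which encodes TAK1, was -0.81 and was -0.18 after scaling. Peli2 reached 1 TPM in the 6 F/F PBS libraries alone, through which it passed the filter, and its difference was -3.77. Peli3, also among the 7, reached it in 6 F/F PBS, 1 F/F Tat and 2 ΔMye Tat libraries. Its difference was -1.18 with overlapping groups, and -0.61 after median-ratio scaling, which did not pass (adjusted p = 0.0446, limma). Both passed the filter through F/F PBS, where they were high, so their calls with Tat are no independent support. Irak1 and Irak4 thus fell while Irak2 and Irak3 rose, under the median-ratio scaling too. In ΔMye Tat against F/F Tat, 6 of the 15 were higher, a share like the 38.8% of all tested genes, and the other 9 passed in neither direction. After scaling 4 were higher and 4 lower, against 15.9% and 19.4% of all genes. Irak1 was 0.76 higher, Ecsit 0.71 and Map3k7 0.49, and these were higher under both scalings too. Peli2 was 0.92 higher, but it was under 1 TPM in every library of both Tat groups, and the groups overlapped. Its difference passed the threshold after median-ratio scaling (0.77) and not after quantile normalization (0.56, adjusted p = 0.0220, limma).

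Of 14 genes of cytokine processing and release, 13 were tested, and 7 rose and 5 fell with Tat, against 17% and 67.6% of all tested genes. After scaling 9 rose and 1 fell, against 37.3% and 38.0%. Nlrp3, the inflammasome sensor, went from 17.6 to 23.9 TPM to 160 to 201 TPM, a log2 difference of 3.10, and Casp4, the non-canonical inflammasome caspase, rose by 2.63. Mefv, which encodes pyrin, rose by 2.13, Casp8 by 1.30, Casp1, which cleaves the precursors of IL-1β and IL-18, by 1.26, and Gsdmd, the pore former, by 1.05. Pycard, the adaptor ASC that links sensors to caspase-1, went the other way, from 146 to 178 TPM to 42.1 to 54.4 TPM, and fell by 1.74. All of these had an adjusted p under 0.01 in limma.

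In ΔMye Tat against F/F Tat 4 of these 13 genes were higher and 3 were lower, against 38.8% and 8.87% of all tested genes. After scaling 3 were higher and 9 lower, against 15.9% and 19.4%. Casp4 differed by -1.04 and Casp8 by -0.71, and Pycard was 0.56 and Mefv 0.54 higher. Casp1 differed by -0.06 with an interval from -0.12 to 0.01 and Nlrp3 by -0.06 with an interval from -0.26 to 0.13, and neither passed the threshold. After median-ratio scaling both differed by -0.28 (adjusted p = 3.00e-05 for Casp1 and 0.00385 for Nlrp3, limma), a smaller difference than the -1.30 of Il1rn on that scale.

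**Figure D4:**
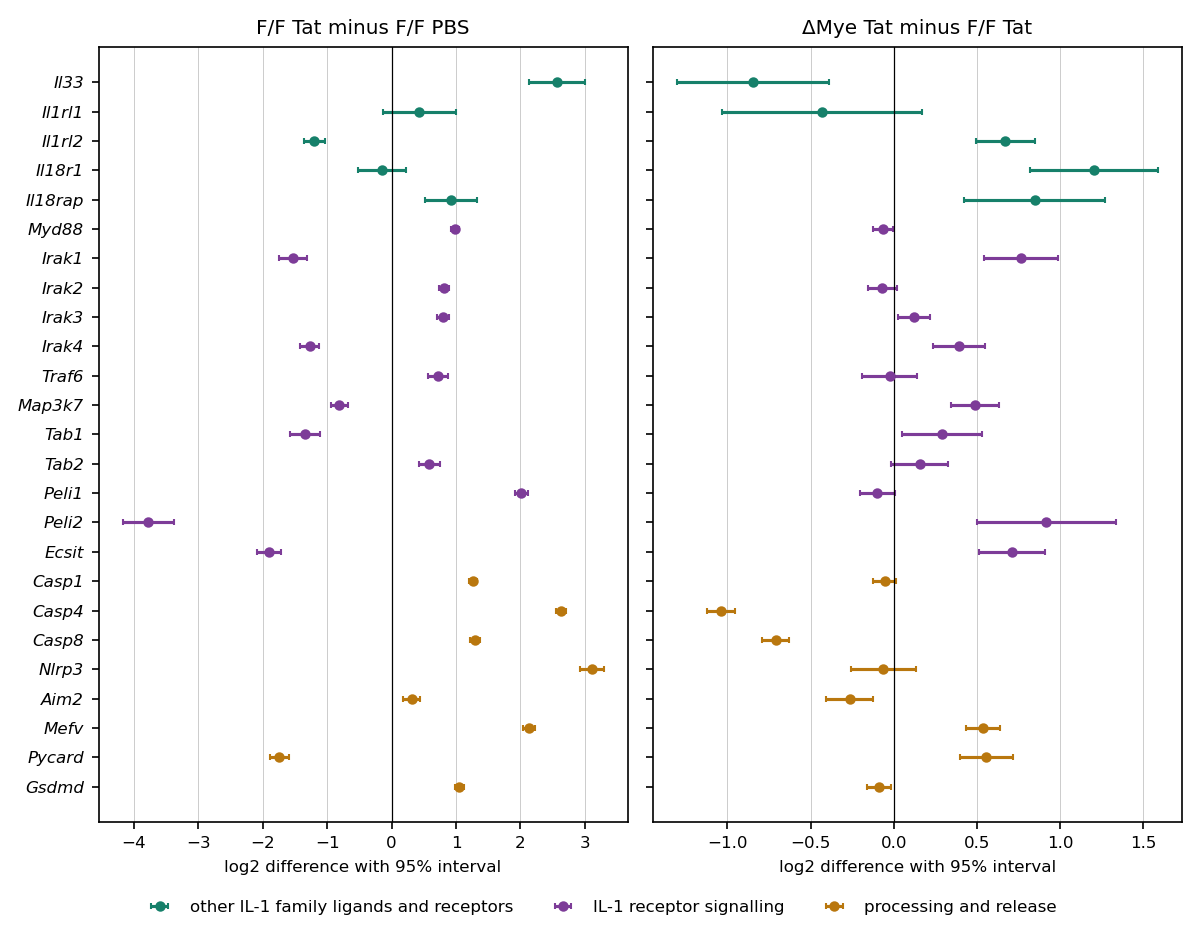
Log2 differences with 95% intervals (limma, TPM as deposited) of genes from the lists of other IL-1 family ligands and receptors, IL-1 receptor signalling, and processing and release, for F/F Tat minus F/F PBS (left) and ΔMye Tat minus F/F Tat (right). Nlrp3 rose by 3.10 and Pycard fell by 1.74 with Tat, and Casp4 differed by -1.04 and Il18r1 by 1.20 between the Tat groups.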

How the data were processed

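RNA-Seq libraries of peritoneal macrophages were compared in 3 groups taken from the sample labels. An item of the genotype shared by all groups is not reported here. The authors made the deposited TPM values with Salmon (version not given in the sources used here) on Ensembl GRCm38, by gene symbol. Their own test ran edgeR on values not used here. Rows reaching 1 TPM in 5 or more of the 17 libraries were kept (10451), and log2(TPM + 0.1) was fitted in limma 3.58.1 (R 4.3.3) by lmFit, contrasts.fit and eBayes with trend. One fit held the 3 groups, leaving 14 residual degrees of freedom, and p was adjusted over all kept genes (Benjamini-Hochberg). Thresholds were an adjusted p under 0.01 and, where stated, a fold change over 3, and an adjusted p under 0.05 for ratios, which were tested by exact permutation in scipy 1.17.1. A fold change on this scale understates the change of low genes. The 8 members and the lists were chosen with earlier results of these data known. The named genes were the members, the genes of 3 lists and the 3 nearest genes of each member whose highest group mean was at least 10 TPM. The script was tested on simulated data. TPM hold no read counts, so depth and counting error are unknown. Coordinates are from GENCODE M21. Alternatives were 2 other pseudocounts (0.5 and 1), 2 other filters (none and 5 TPM), 2 scalings, a fit of the compared groups only, robust weights and each library left out.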

Additional observations from a re-analysis of the deposited data

Results flagged for a closer look

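A sample was marked when its gap to the nearest other sample of its group, over the group's range, passed Dixon's 95% value. Of 39 groups of values examined 4 were marked, where chance gives about 1 in 20, or 1.95. In F/F Tat library 11, Il1b was the lowest of its group at 7755 TPM, and the next was 8208 TPM. The same library had the highest log2 ratio of Il1rn to Il1b of its group, at -0.92 against the next at -1.05, and the highest log2 ratio of Il1rn to the sum of Il1a and Il1b, at -1.74 against -1.88. These 3 values share the Il1b level and are not independent. In ΔMye Tat library 19, Il1r1 was the highest of its group at 1.10 TPM, and the next was 0.834 TPM.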

How the results depend on the processing

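The TPM hold no depth, and genes near or under 1 TPM, Il1r1 and Il1r2, varied most. For the members, 172 of 182 values under other pseudocounts, filters, scalings and fits kept their side of the threshold and, where called, their direction, as did 385 of 393 with a library left out, and all 150 counts of genes stayed within 1.5 times. For the ratios, 20 of 20 values under other pseudocounts and 110 of 115 with a library left out did so. Under quantile normalization the direction turned for Il1b in ΔMye Tat against F/F Tat (0.028), for Il1r1 with Tat (0.51) and in ΔMye Tat against F/F PBS (0.43), and for Il18r1 with Tat (1.11), while Il1r2 passed the threshold with Tat (1.61) and between the Tat groups (-1.36). Under median-ratio scaling Il18bp passed it between the Tat groups (-0.26), and Il1r1 lost it with Tat (-0.20) and in ΔMye Tat against F/F PBS (-0.17). The last also lost it with no filter and in a fit of the compared groups only (both -0.55), and without F/F Tat library 7 or 12 or ΔMye Tat library 20, 21, 22 or 23. Without F/F PBS library 1, 2, 5 or 6 or ΔMye Tat library 19 Il1r1 fell under the filter and was not tested. With any other library left out, that difference ran from -0.63 to -0.51. That of Il1r2 ran from -1.27 to -0.96 between the Tat groups and from -1.04 to -0.45 against F/F PBS, and both passed the threshold without F/F PBS library 1. That of the ratio of Il1r2 to Il1r1 with Tat ran from 0.76 to 1.48. Differences called in neither setting turned for Il1rap between the Tat groups (-0.16 under median-ratio scaling, -0.18 under quantile normalization) and, under quantile normalization, for Il1r1 between the Tat groups (-0.077) and Il1r2 in ΔMye Tat against F/F PBS (0.24). The cause of these changes was not tested. No filter at 5 TPM could be applied to Il1r1 and Il1r2, which it removes. No paired analysis was possible because the groups share no replicate numbers.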
